A study of Mus musculus with 19 samples.

Results

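The 9 genes described here encode the chemokines, receptors and growth factor that guide monocytes from blood into tissue, with Ly6c2 as a marker of the classical monocyte. They were chosen by gene symbol, from 35160 genes with a count in at least 1 library (55414 genes were listed), and all 9 passed the filter on low counts, which left 17617 genes. RNA was sequenced from the abdominal aorta of male Apoe-/- mice on the C57Bl/6J background, each infused with angiotensin II (AngII) at 1000 ng/kg/min from an osmotic pump implanted at 8 to 10 weeks of age. Each library came from the aorta of 1 mouse. Control mice (n = 5) received the anaesthetic but no radiation. The D-3 IR mice (7 libraries) received a single total-body X-ray dose of 1 Gy 3 days before pump implantation, and the D+1 IR mice (7 libraries) the same dose 1 day after it. All 3 groups therefore shared the Apoe deletion and the AngII infusion, so that no group shows the aorta without them. Mice of the study were killed on day 7 of infusion, for tissue analyses, or on day 28, for survival and disease development. For the RNA-seq itself the day is not stated in the sources used here. Total-body irradiation reaches the bone marrow and the blood as well as the aorta. The study asked how radiation at low to moderate dose, given before or after the onset of AngII infusion, affects abdominal aortic aneurysm.

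In mice, classical monocytes carry Ly6C and the receptor CCR2 on their surface, leave the bone marrow along gradients of CCR2 ligands and give rise to macrophages in inflamed tissue. Non-classical monocytes carry little Ly6C and much CX3CR1, the receptor for the membrane-bound chemokine CX3CL1 of endothelial and smooth muscle cells. Colony-stimulating factor 1, the product of Csf1, keeps monocytes and macrophages alive through its receptor CSF1R. In the AngII-infused aorta, monocytes enter the adventitia and media, where dissection and aneurysm form.

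The depth was 25839001 to 97083681 counts in genes per library (median 39641963), and the common biological coefficient of variation of 0.591 describes the spread between mice. The 9 genes were covered by 7 reads (Ly6c2) to 11861 reads (Ccl2) per library. Levels are given as CPM (read counts scaled to a common library size) normalized by TMM, a method that aligns the bulk of genes between libraries. The smooth muscle markers Acta2 (698 to 18521 CPM) and Myh11 (176 to 5262 CPM) were present in every library, and Apoe was at 3.58 to 31.9 CPM. Libraries D+1 IR 1, 2 and 3 belonged to files numbered apart from the rest, and no library of another group shared that numbering, so that within D+1 IR the numbering and the mice cannot be told apart. Control 9 and D+1 IR 20 stood apart from the other libraries in the levels of the 9 genes. Control 9 was the highest of all 19 libraries for 5 genes (Ccl2, Ccl7, Ccr2, Cx3cl1 and Csf1) and D+1 IR 20 for the other 4 (Ccl8, Ccl12, Cx3cr1 and Ly6c2). Where leaving out either of them turned a fold change of the 9 genes, the value without it is given too, here or in the closing section.

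The 4 genes Ccl2, Ccl7, Ccl12 and Ccl8 stood in this order within 81229 bases of chromosome 11 on the plus strand (GRCm38). Ccl2 (ENSMUSG00000035385.6) lay at chr11:82035571-82037453, Ccl7 (ENSMUSG00000035373.3) at chr11:82045712-82047525, Ccl12 (ENSMUSG00000035352.4) at chr11:82101845-82103400 and Ccl8 (ENSMUSG00000009185.3) at chr11:82115185-82116799. Ccl2 and Ccl7 were separated by 8258 bases and Ccl12 and Ccl8 by 11784 bases, whereas 54319 bases lay between the pairs. The other 5 genes were on other chromosomes. Of the receptors, Ccr2 was on chromosome 9 (124101950 to 124113557, plus strand) and Cx3cr1 on the same chromosome (119901616 to 120069879, minus strand). Cx3cl1 was on chromosome 8 (94772009 to 94782427, plus strand), Csf1 on chromosome 3 (107741048 to 107760469, minus strand) and Ly6c2 on chromosome 15 (75108158 to 75111970, minus strand).

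Ccl8 and Ccl12 rose and fell together over the libraries, and their proximal promoters are shown because they are neighbours. The 250 bases before each start site, from RefSeq on GRCm38.p6, are given 5′ to 3′ on the plus strand, with the TATA box and the core of the site of PU.1, a transcription factor of myeloid cells, in capitals.
Ccl8 (chr11:82114935-82115184): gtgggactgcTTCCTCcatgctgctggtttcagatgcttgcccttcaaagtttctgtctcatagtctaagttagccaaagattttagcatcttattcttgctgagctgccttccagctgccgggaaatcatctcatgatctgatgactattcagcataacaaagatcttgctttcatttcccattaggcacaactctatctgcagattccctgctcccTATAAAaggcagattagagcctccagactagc
Ccl12 (chr11:82101595-82101844): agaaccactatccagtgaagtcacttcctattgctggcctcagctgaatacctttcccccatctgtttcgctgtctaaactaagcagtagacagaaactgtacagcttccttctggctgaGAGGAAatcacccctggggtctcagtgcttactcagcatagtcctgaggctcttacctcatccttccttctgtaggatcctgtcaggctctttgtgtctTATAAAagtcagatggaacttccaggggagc
Counted from the start site, with -1 as the base before it, the TATA box (TATAAA) stood at -32 to -27 in Ccl8 and at -31 to -26 in Ccl12. The PU.1 core (GAGGAA) was on the minus strand of the Ccl8 window at -240 to -235, where the plus strand reads TTCCTC, and on the plus strand of the Ccl12 window at -130 to -125. Over all 32851 windows of this length, 12.4% held the TATA box and 23.3% the PU.1 core, both searched on both strands. A global alignment of the pair gave 145 identical bases of 234 aligned bases (62.0%). Windows were found for 7 of the 9 genes, all but Ccl2 and Ccl7. Neither Ccl8 nor Ccl12 held the site TGANTCA of AP-1 (6.75% of all windows), the site TTCNNNGAA of STAT factors (7.02%) or the kappa B motif (3.90%) in its window, which says only that these letters are not in these bases. Csf1 alone of the 7 held the kappa B motif, at -154 to -145 on the strand opposite to the gene.

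Ccl2, the main attractant of CCR2-bearing monocytes, differed 356 times between its lowest and its highest library, and 31.8 times without control 9. In control 4, 5, 6, 8 and 9 it was at 0.884, 13.5, 5.12, 1.85 and 314 CPM. It ran from 1.76 to 23.3 CPM (median 9.17) in the D-3 IR aortas and from 2.79 to 28.1 CPM (median 9.24) in the D+1 IR aortas. Control 9 stood 23.4 times above the next control and above every irradiated library, whereas the other 4 controls had a median of 3.48 CPM and overlapped with both irradiated groups. The group mean was 67.1 ± 138 CPM in control (SD, n = 5), and 5.33 ± 5.71 CPM (SD, n = 4) without control 9, against 10.1 ± 9.11 CPM in the D-3 IR aortas and 14.6 ± 11.4 CPM in D+1 IR (SD, n = 7 each). Against control, the log2 fold change of the D-3 IR aortas was -2.73 (standard error 1.13) with all libraries and 0.92 (standard error 0.88) without control 9. For the D+1 IR aortas it was -2.20 (standard error 1.12) and, without control 9, 1.46 (standard error 0.90). So the order of the groups turned with 1 library, and neither value passed the test at an adjusted p of 0.05.

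Ccl7, which binds CCR2 and other chemokine receptors and lies next to Ccl2, had the same pattern over the libraries. The controls were at 1.14, 15.4, 2.97, 1.23 and 165 CPM in the order 4, 5, 6, 8 and 9. D-3 IR spanned 1.57 to 16.4 CPM (median 8.32) and D+1 IR 2.89 to 43.3 CPM (median 8.95). Control 9 was again alone at the top, 10.8 times above control 5, and the groups overlapped with it and without it. Log2 fold changes against control were -2.19 (standard error 1.02) in the D-3 IR aortas and -1.18 (standard error 1.01) in D+1 IR. Without control 9 they were 0.65 (standard error 0.84) and 1.67 (standard error 0.88).

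Ccl8, a chemokine that also acts through CCR8 in mice, was alike in control 9 and control 5. Its controls were at 4.27, 34.2, 5.78, 4.81 and 32.2 CPM in the same order. It ran from 3.00 to 48.7 CPM (median 17.9) in the D-3 IR aortas and from 3.79 to 148 CPM (median 18.4) in the D+1 IR aortas. Here D+1 IR 20 was the library alone at the top, 4.75 times above the next of its group, while the medians of both irradiated groups were above the 5.78 CPM of control and all groups overlapped. The log2 fold change was 0.33 (standard error 0.85) in D-3 IR against control and 1.05 (standard error 0.87) in D+1 IR against control. Without D+1 IR 20 the latter was -0.16, so its direction rested on that library.

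Ccl12, a mouse ligand of CCR2, had the lowest median level per length of the 4 ligands, though it was above Ccl2 in some libraries such as control 4 (1.85 against 0.777 CPM per kilobase of exon). It was at 0.995, 4.62, 0.563, 0.370 and 7.69 CPM in control 4, 5, 6, 8 and 9. The range was 0.703 to 5.07 CPM (median 2.27) in the D-3 IR aortas and 0.754 to 22.3 CPM (median 3.10) in the D+1 IR aortas. As for Ccl8, D+1 IR 20 was the highest, 3.84 times above the next of its group, and the remaining libraries of the 3 groups overlapped. The log2 fold change was -0.20 (standard error 0.82) in D-3 IR against control, 0.97 (standard error 0.84) in D+1 IR against control and -1.17 (standard error 0.76) between the irradiated groups (D-3 IR against D+1 IR). The D+1 IR value against control was -0.02 without D+1 IR 20 and 1.77 without control 9, and the value between the irradiated groups was -0.18 without D+1 IR 20.

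**Figure D1:**
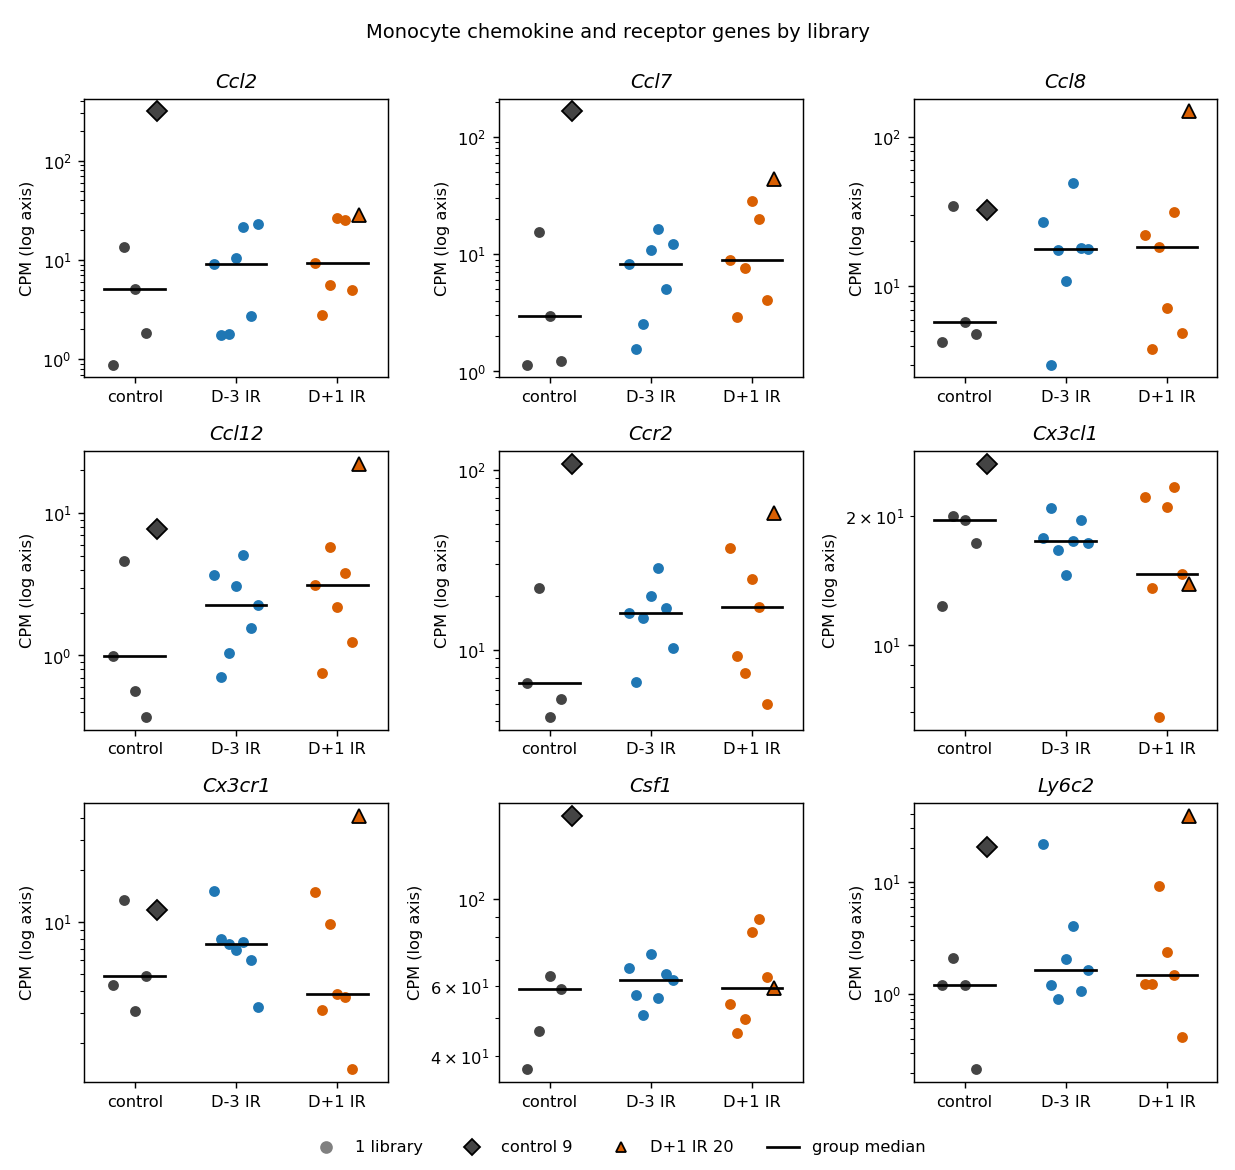
CPM of the 9 genes on log axes, 1 panel per gene and 1 point per library, for 5 control, 7 D-3 IR and 7 D+1 IR libraries, with a line at each group's median. Control 9 (diamond) is the highest point for Ccl2 (314 CPM), Ccl7, Ccr2, Cx3cl1 and Csf1, and D+1 IR 20 (triangle) for Ccl8 (148 CPM), Ccl12, Cx3cr1 and Ly6c2.

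The receptor gene Ccr2, which marks classical monocytes and their recent descendants in tissue, followed its ligands over the libraries. It was at 6.56, 22.05, 4.23, 5.33 and 108 CPM in control 4, 5, 6, 8 and 9. D-3 IR ran from 6.65 to 28.4 CPM (median 16.0) and D+1 IR from 5.02 to 57.6 CPM (median 17.2). Control 9 was 4.91 times above control 5, and the other 3 controls were below the lowest D-3 IR library. In bulk tissue, fewer cells of a type and less RNA per cell cannot be told apart, for Ccr2 and for the other genes of blood cells. The log2 fold change against control was -0.86 (standard error 0.73) in the D-3 IR aortas and -0.37 (standard error 0.73) in D+1 IR. Without control 9 both turned, to 0.76 (standard error 0.62) and 1.24 (standard error 0.63).

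Cx3cl1, the ligand that vessel wall cells display on their membrane, was the steadiest of the genes together with Csf1. The controls were at 12.4, 20.1, 19.6, 17.3 and 26.5 CPM in the order 4, 5, 6, 8 and 9. Levels ran from 14.6 to 20.9 CPM (median 17.5) in the D-3 IR aortas and from 6.81 to 23.4 CPM (median 14.6) in the D+1 IR aortas. The highest library was 3.90 times the lowest for Cx3cl1 (3.44 times without control 9), and the groups overlapped over most of their range. The log2 fold changes were -0.11 (standard error 0.24) in D-3 IR against control, -0.22 (standard error 0.24) in D+1 IR against control and 0.10 (standard error 0.22) between D-3 IR and D+1 IR.

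Cx3cr1, the receptor of Cx3cl1 on non-classical monocytes and many resident macrophages, was at 4.35, 13.4, 3.07, 4.87 and 11.8 CPM in control 4, 5, 6, 8 and 9. It ran from 3.23 to 15.2 CPM (median 7.47) in the D-3 IR aortas and from 1.41 to 41.2 CPM (median 3.83) in the D+1 IR aortas. D+1 IR thus held the lowest library (D+1 IR 19) and the highest (D+1 IR 20), with a mean of 11.1 ± 14.1 CPM (SD, n = 7) and of 6.10 ± 5.13 CPM without D+1 IR 20 (SD, n = 6). The log2 fold change was 0.05 (standard error 0.66) in the D-3 IR aortas and 0.57 (standard error 0.67) in D+1 IR against control, the latter -0.30 without D+1 IR 20. In GENCODE M21, 78 exon bases of Cx3cr1 overlapped those of Gm33858 on the other strand, and reads of both strands were counted together, so that reads in these bases cannot be assigned.

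Csf1, the growth factor for monocytes and macrophages, differed little between mice apart from control 9. It was at 37.0, 46.2, 63.8, 59.1 and 162 CPM in control 4, 5, 6, 8 and 9. The range was 50.7 to 72.5 CPM (median 62.2) in the D-3 IR aortas and 45.7 to 88.7 CPM (median 59.4) in the D+1 IR aortas. Control 9 was 2.54 times above control 6, and the medians of the 3 groups lay within 59.1 to 62.2 CPM. The log2 fold change against control was -0.26 (standard error 0.28) in the D-3 IR aortas and -0.22 (standard error 0.28) in D+1 IR, and without control 9 it was 0.25 (standard error 0.19) and 0.30 (standard error 0.19). The receptor gene Csf1r, which serves Csf1 and Il34, was at 20.3 to 228 CPM, with control 6 the lowest and D+1 IR 20 the highest library. Its log2 fold change was 0.05 (standard error 0.44) in the D-3 IR aortas and 0.44 (standard error 0.45) in D+1 IR against control. Without control 9 these were 0.52 and 0.91, and without D+1 IR 20 the latter of the full set was 0.051.

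Ly6c2, a surface protein by which classical monocytes are sorted, was at 1.22, 2.10, 1.21, 0.216 and 20.4 CPM in control 4, 5, 6, 8 and 9. It ran from 0.913 to 21.5 CPM (median 1.63) in the D-3 IR aortas and from 0.419 to 38.3 CPM (median 1.48) in the D+1 IR aortas. Each group held 1 library far above its others, control 9, D-3 IR 10 and D+1 IR 20, at 9.72, 5.32 and 4.19 times the next of the group. The log2 fold change against control was -0.11 (standard error 1.18) in the D-3 IR aortas and 0.62 (standard error 1.20) in D+1 IR. Without control 9 these were 1.96 (standard error 1.24) and 2.699 (standard error 1.29), and without D+1 IR 20 the latter of the full set was -0.93. Reads that aligned to several places were not counted, and Ly6c2 is nearly identical to its neighbour Ly6c1, a gene of endothelial cells, so that the counts of Ly6c2 are uncertain. Ly6c1 was at 38.1 to 323 CPM and was not raised in control 9 (114 CPM), with a log2 fold change of 0.76 (standard error 0.35, adjusted p = 0.644 from edgeR) in D+1 IR against control.

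None of the 9 genes passed the test in any comparison. In D-3 IR against control 0 of the 9 genes passed (edgeR's quasi-likelihood F-test, Benjamini-Hochberg, smallest adjusted p = 1.00), as did 0% of all 17617 genes. Below an unadjusted p of 0.05 from edgeR there were 2 of the 9 genes, Ccl2 (0.0266) and Ccl7 (0.0457), beside 1.32% of all genes. Both were above it without control 9 (0.306 and 0.446), where it was met by 0 of the 9 genes and by 1.55% of 17997 genes. In D+1 IR against control 0 of 9 passed (smallest adjusted p = 0.644), as did 0% of all genes. The smallest unadjusted p was that of Ccl2 (0.0645), so that 0 of the 9 had one under 0.05, beside 7.11% of all genes. Without control 9 the smallest was 0.0510 (Ly6c2), again 0 of the 9, beside 7.14%, and 0% of genes passed after adjustment in either comparison. In D-3 IR against D+1 IR 0 of 9 passed (smallest adjusted p = 0.528, Ccl12), as did 0% of all genes, and 0 of the 9 had an unadjusted p under 0.05, beside 11.5% of all genes. DESeq2 called 0 of the 9 in each comparison too. Of all genes it called 0 in D-3 IR against control, 2 in D+1 IR against control and 56 between the irradiated groups. The groups overlapped for all 9 genes, in D-3 IR against control (0.0114% of all genes did not overlap, 0.159% without control 9), in D+1 IR against control (0.136%, and 0.431% without control 9) and between the irradiated groups (0.159%). The 2 comparisons against control share the control libraries, and so share control 9.

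The signs of the 9 fold changes turned with single libraries. Control 9 was the highest of all 19 libraries for 5 of the 9 genes. Leaving it out was therefore bound to raise their values against control. D+1 IR 20 was the highest for the other 4, so leaving it out was bound to lower the D+1 IR side. Many of the 9 genes were also correlated with each other, so their signs are not independent. In D-3 IR against control 7 of 9 were negative, with a median of -0.20 (-0.03 over all genes), and without control 9 all 9 were positive, with a median of 0.65 (-0.02 over all genes). In D+1 IR against control 5 of 9 were negative (median -0.22, and -0.04 over all genes). Without control 9, 8 of these 9 were positive (median 1.45, and -0.01 over all genes), and Cx3cl1 remained at -0.07. Without D+1 IR 20, 0 of the 9 were positive (median -0.30). In D-3 IR against D+1 IR, in which no control is compared, 8 of 9 were negative (median -0.53, and -0.04 over all genes), and without D+1 IR 20, 5 of 9 (median -0.05). Leaving out D+1 IR 1, 2 and 3 moved the median of this comparison to -1.07, with 9 of 9 negative.

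**Figure D2:**
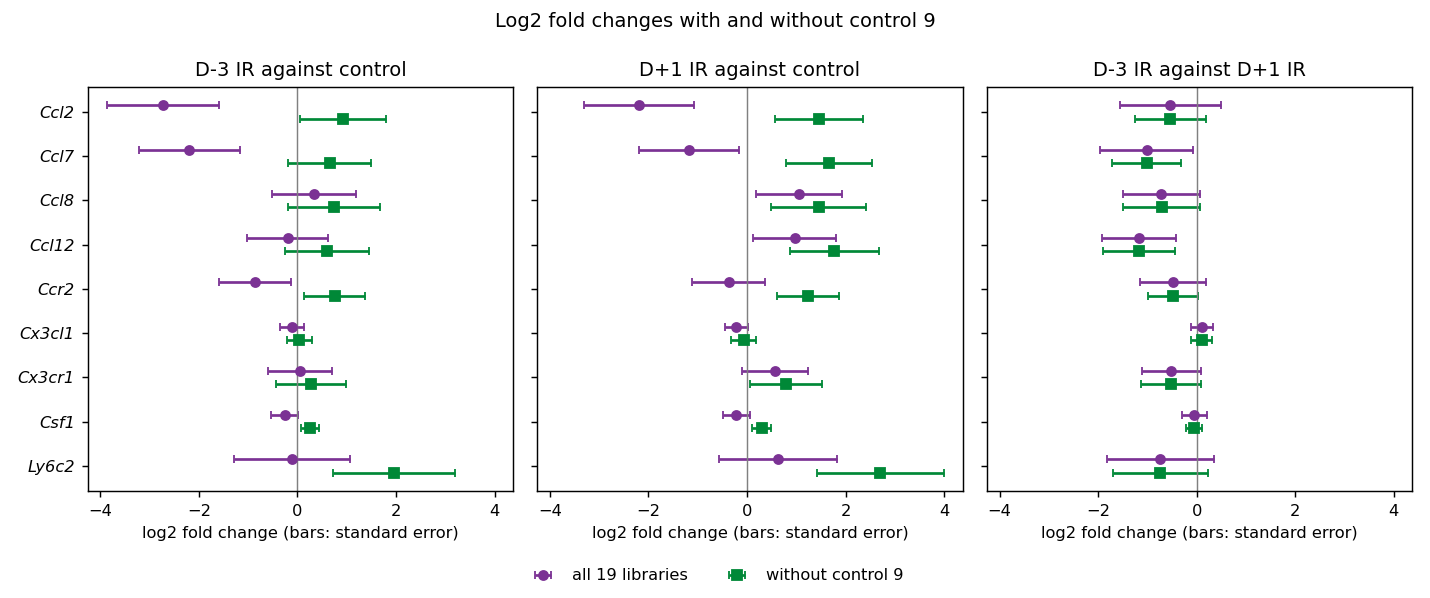
Log2 fold changes from edgeR for the 9 genes in the 3 comparisons, with bars for the standard error, from all 19 libraries (circles) and without control 9 (squares). Ccl2 moves from -2.73 to 0.92 in D-3 IR against control and from -2.20 to 1.46 in D+1 IR against control. In D-3 IR against D+1 IR no control is compared, so leaving out control 9 could hardly move the values.

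Levels were compared between the genes as CPM per kilobase of exon. By the median over the 19 libraries the order was Ccl8 (35.0), Csf1 (11.3), Ccl7 (10.4), Ccl2 (8.06), Cx3cl1 (4.46), Ccl12 (4.22), Ccr2 (2.36), Cx3cr1 (1.53) and Ly6c2 (0.540). The ranges over libraries of neighbours in this order overlapped, for example Ccl8 from 5.87 to 290 and Csf1 from 7.01 to 30.7 CPM per kilobase. Ccl8 thus gave most of the ligand transcript in most aortas. It made up a median of 58.7% of the summed level per length of the 4 ligands of chromosome 11, with a median of 62.8% in control, 66.1% in the D-3 IR aortas and 53.0% in D+1 IR.

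The make-up of these ligands differed between the 2 libraries with the most ligand transcript. In control 9, whose 4 ligands summed to 560 CPM per kilobase, Ccl2 gave 49.3%, Ccl7 36.9% and Ccl8 11.3%, the lowest Ccl8 share of all libraries. In D+1 IR 20, at 410 CPM per kilobase, Ccl8 gave 70.7% and Ccl2 6.03%. The other libraries summed to between 10.7 and 144 CPM per kilobase, and D+1 IR 17 (18.3% Ccl8, 45.9% Ccl7) had the next lowest Ccl8 share. Ccl2 and Ccl7 kept close to each other, with a ratio of Ccl2 to Ccl7 per length between 0.376 and 1.34, whereas the ratio of Ccl8 to Ccl2 ran from 0.228 (control 9) to 21.8 (D-3 IR 12).

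**Figure D3:**
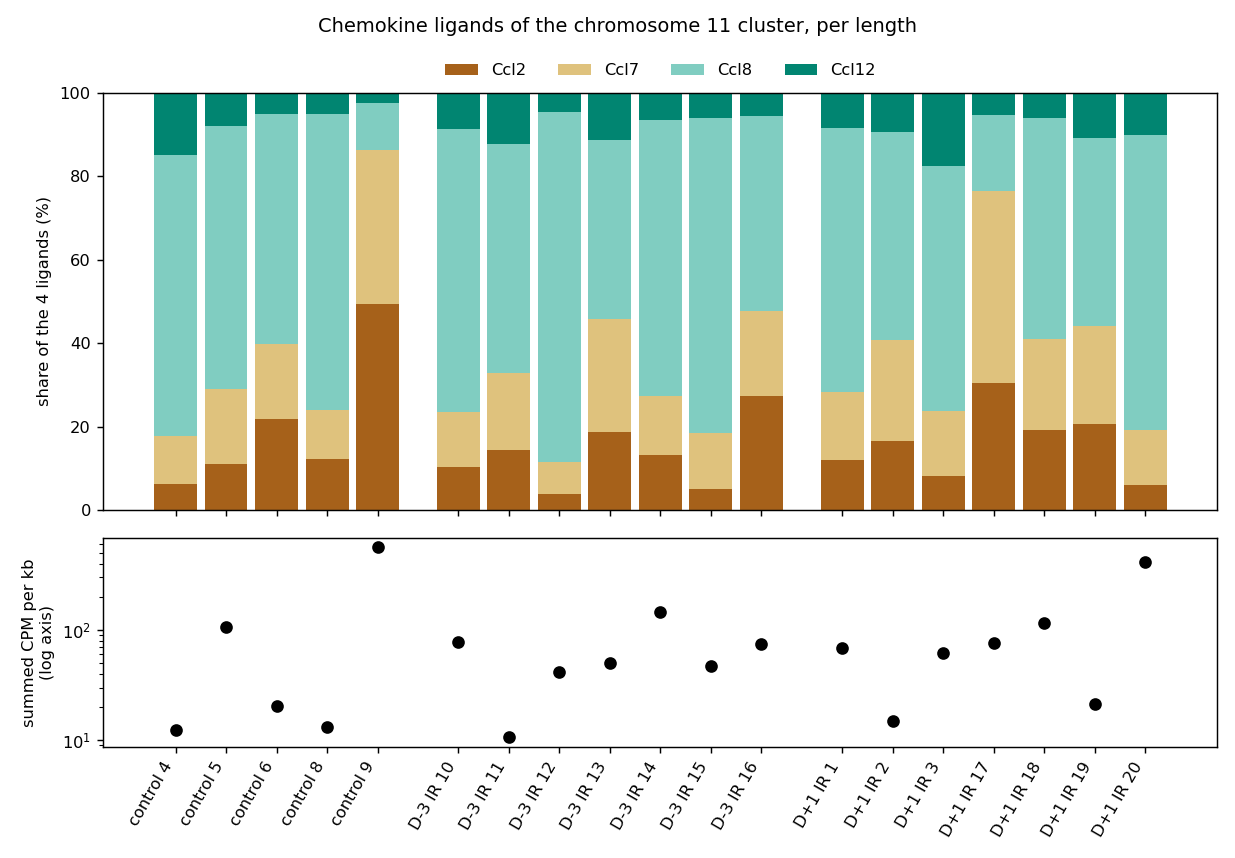
Share of Ccl2, Ccl7, Ccl8 and Ccl12 in their summed CPM per kilobase of exon (bars, %) and that sum (points, log axis) in each of the 19 libraries. Ccl8 is the largest part in all libraries but control 9 (11.3%) and D+1 IR 17 (18.3%), and the sum is highest in control 9 (560) and D+1 IR 20 (410).

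Of the 36 pairs among the 9 genes, 23 had log2 CPM that were correlated over the 19 libraries (two-sided permutation tests with 100000 resamples of Pearson's r, Benjamini-Hochberg over the 36 pairs), and 22 by Spearman's rho. The highest was that of the neighbours Ccl2 and Ccl7, with r = 0.967 and rho = 0.977 (permutation p = 1e-05 for both, the smallest that permutations can give, and adjusted 9e-05 and 0.00018). It was 0.943 without the 2 libraries farthest from the median of Ccl2, 0.971 for deviations from the group means and 0.968 without D+1 IR 1, 2 and 3. For Ccl8 and Ccl12, whose promoters are printed above, r was 0.885 and rho 0.902 (permutation p = 1e-05 for both, adjusted 9e-05 and 0.00018), and r was 0.821 without the 2 libraries farthest out. Across the pairs of neighbours the values over all 19 libraries were lower. The lowest was that of Ccl2 and Ccl8, at r = 0.629 and rho = 0.725 (permutation p = 0.00373 and 0.00077, adjusted 0.00671 and 0.00213), with r = 0.638 without the 2 libraries farthest out. The highest was that of Ccl7 and Ccl12, at r = 0.842 and rho = 0.830 (permutation p = 2e-05 and 7e-05, adjusted 0.000144 and 0.000504). It was r = 0.876 without the 2 libraries farthest from the median of Ccl7. Without control 9 and D+1 IR 20, r was 0.831 for Ccl7 and Ccl12 and 0.824 for Ccl8 and Ccl12. No difference between correlations was tested. The share of correlated pairs among other genes is not given. The counts of pairs are therefore not shown to be particular to these 9 genes.

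Each of the 4 ligands was correlated with the receptor gene Ccr2. Ccl7 had r = 0.854 and rho = 0.830 with it (permutation p = 1e-05 and 2e-05, adjusted 9e-05 and 0.00018), and r = 0.776 without the 2 libraries farthest from its median. For Ccl12, Ccl2 and Ccl8 r was 0.779, 0.769 and 0.753, rho 0.765, 0.749 and 0.763, and the adjusted p of r 0.00036, 0.000566 and 0.000945 by permutation, with r of 0.712, 0.623 and 0.689 without the 2 farthest. Ccr2 with the monocyte marker Ly6c2 had r = 0.644 and rho = 0.663 (adjusted permutation p = 0.00608 and 0.00605), and r = 0.366 without both control 9 and D+1 IR 20, where the pair no longer passed. Ccr2 and Cx3cr1 had r = 0.659 and rho = 0.611 (adjusted permutation p = 0.00404 and 0.0132), also no longer past the threshold without these libraries (r = 0.554). The ligand Cx3cl1 and its receptor Cx3cr1 had r = 0.006 and rho = 0.142 (permutation p = 0.981 and 0.559, adjusted 0.981 and 0.610). Without control 9 and D+1 IR 20 together, 12 of the 36 pairs passed.

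**Figure D4:**
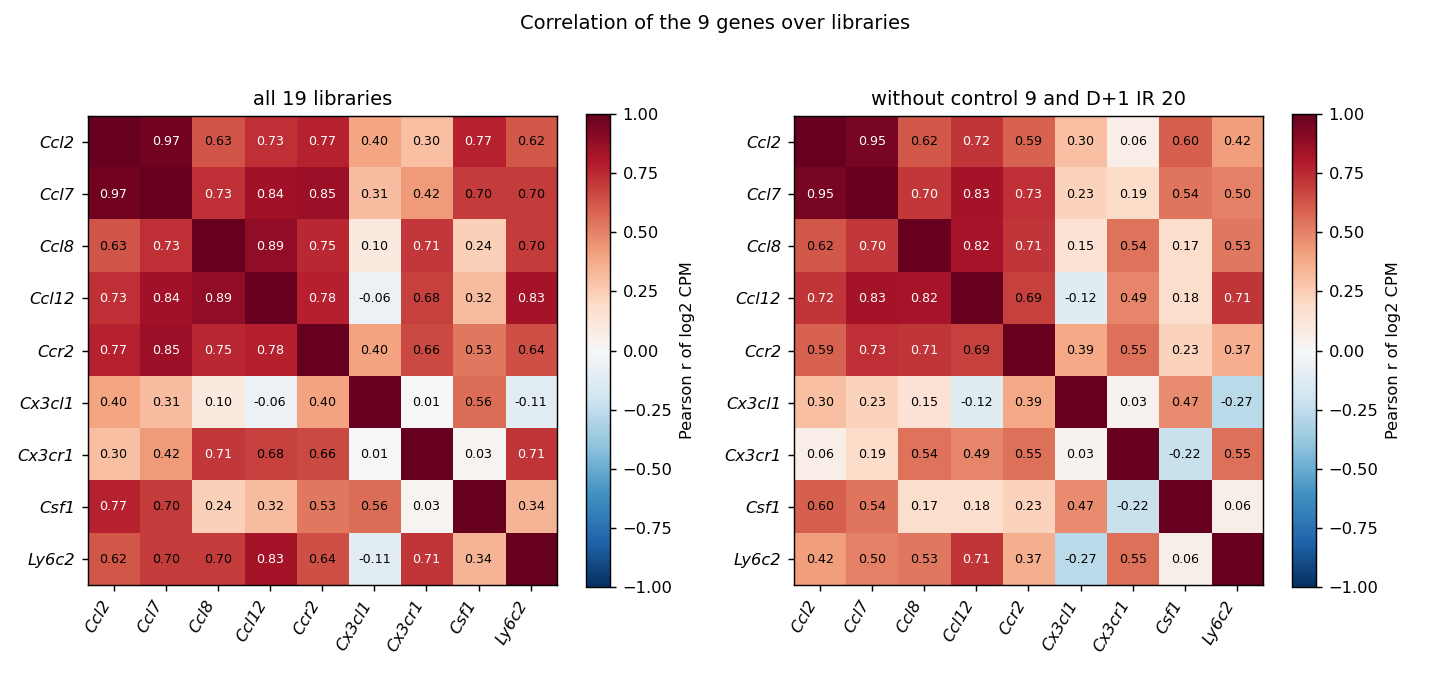
Pearson's r of log2 CPM for each pair of the 9 genes, over all 19 libraries (left) and without control 9 and D+1 IR 20 (right), from blue (-1) to red (1). Ccl2 with Ccl7 (0.97 and 0.95), Ccl8 with Ccl12 (0.89 and 0.82) and Ccl7 with Ccl12 (0.84 and 0.83) stay high on both sides. Cx3cl1 with Cx3cr1 is near 0 on both.

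Over all genes tested, the ones with the pattern over the 19 libraries most like each of the 9 are given as a description, by Spearman's rho. For Ccl2 they were Ccl7 (0.977), the cytokine gene Il6 (0.921) and the neutrophil attractant gene Cxcl2 (0.918), and for Ccl7 they were Ccl2, Il6 (0.951) and the chemokine gene Ccl9 (0.940). Those of Ccl8 were the complement gene C1qb (0.930), the lysosomal macrophage marker Cd68 (0.928) and the Fc receptor gene Fcgr1 (0.921). Ccl12 was most like Btk (0.942), a kinase of B and myeloid cells, Ms4a6b (0.935) and Slfn2 (0.933). Ms4a6d (0.947) and Nxpe5 (0.932) were among those most like Ccr2. For Cx3cr1 they were Gpr65 (0.925), Lair1 (0.912), an inhibitory receptor of leukocytes, and Cybb (0.905), the oxidase subunit of phagocytes. Ly6c2 was most like Slfn1 (0.930), Treml2 (0.918) and Samsn1 (0.914). The genes most like Csf1 were of another kind, Mybbp1a (0.900) and the splicing factor genes U2af2 (0.896) and Sf3b3 (0.891). Cx3cl1 had the lowest values, with the Wnt antagonist gene Frzb (0.823), the endothelial adhesion gene Sele (0.775) and D11Wsu47e (0.774).

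Macrophage markers moved with 7 of the 9 genes, all but Cx3cl1 and Csf1, by both correlation measures given in the next paragraph. The share of all genes that move with a marker list is not given. Such counts are therefore not shown to be particular to the 9. All 11 macrophage markers of the list used (Cd68, C1qa, Csf1r and others) passed the filter and none was at 0 in all libraries. They summed to 392 to 2525 CPM in control (highest in control 9), 464 to 1745 CPM in the D-3 IR aortas and 625 to 4401 CPM in D+1 IR (highest in D+1 IR 20). All 11 neutrophil markers passed too, and they summed to 5.61 to 1233 CPM in control (highest in control 9, and at most 143 CPM without it), 14.6 to 155 CPM in the D-3 IR aortas and 18.5 to 209 CPM in D+1 IR. The 6 T cell markers summed to 4.38 to 7.85 CPM in control, 2.91 to 210 CPM in D-3 IR (highest in D-3 IR 10) and 3.02 to 116 CPM in D+1 IR (highest in D+1 IR 3). The 6 classical monocyte markers beside Ccr2 and Ly6c2, which include the matrix genes Fn1 and Vcan that wall cells also express, summed to 2139 to 13734 CPM in control, with control 6, the library of lowest Ccr2, at the top. That sum ran from 2789 to 12287 CPM in the D-3 IR aortas and from 391 to 6467 CPM in D+1 IR. The 6 non-classical monocyte markers summed to 195 to 385, 256 to 999 and 148 to 697 CPM in the 3 groups. The 8 smooth muscle markers summed to 6657 to 34652 CPM in control, 11268 to 29129 in the D-3 IR aortas and 1654 to 18522 in D+1 IR. The part of these cells in the levels of the 9 genes was not tested.

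With the mean log2 CPM of the macrophage markers, Ccl8 had r = 0.898 and rho = 0.939 over the 19 libraries (permutation p = 1e-05 for both, adjusted 0.00018 for both over 54 relations). Ccl12 (r = 0.896, rho = 0.914) and Ccr2 (r = 0.892, rho = 0.849) had the same adjusted permutation p. Ccl7 followed with r = 0.839 and rho = 0.807 and Ccl2 with r = 0.747 and rho = 0.732 (adjusted permutation p = 0.000405 and 0.00182 for r). Without control 9 and D+1 IR 20, the 2 libraries farthest from the median of these markers, r was 0.892 for Ccl8, 0.831 for Ccl12, 0.828 for Ccr2, 0.751 for Ccl7 and 0.641 for Ccl2. Ly6c2 (r = 0.713, rho = 0.660) and Cx3cr1 (r = 0.694, rho = 0.616) also passed (adjusted permutation p = 0.00492 and 0.00584 for r). Without control 9 and D+1 IR 20 their r was lower, at 0.418 and 0.495. Csf1 (r = 0.453, rho = 0.275) and Cx3cl1 (r = 0.185, rho = 0.279) did not pass (adjusted permutation p = 0.120 and 0.584 for r). With the neutrophil markers 5 of the 9 genes were correlated by both measures, Ccl2, Ccl7, Ccl8, Ccl12 and Ly6c2. The highest value was that of Ly6c2 (r = 0.798, rho = 0.807, adjusted permutation p = 0.000972 and 0.000945), at r = 0.695 without the 2 farthest libraries. Ccl2 had r = 0.746 and rho = 0.749 (adjusted permutation p = 0.00182 and 0.00262), close to its values with the macrophage markers, and r = 0.542 without the 2 farthest libraries. Ly6c2 alone of the 9 was also correlated with the T cell markers (r = 0.614, rho = 0.444, adjusted permutation p = 0.0221 and 0.149), by r but not by rho, with r = 0.424 without the 2 farthest libraries. Cx3cl1 was the 1 gene correlated with the smooth muscle markers (r = 0.594, rho = 0.409, adjusted permutation p = 0.0283 and 0.195), also by r alone, with r = 0.150 without the 2 farthest libraries, on which the relation rests. The 54 relations also took in resident macrophage and endothelial markers, whereas the classical and non-classical monocyte markers were not among them. Resident macrophage markers were correlated by both measures with 5 genes, from Ccl2 (r = 0.592, rho = 0.579) over Ccl12, Ccr2 and Ccl7 to Ccl8 (r = 0.668, rho = 0.670). With the endothelial markers 0 of the 9 were.

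**Figure D5:**
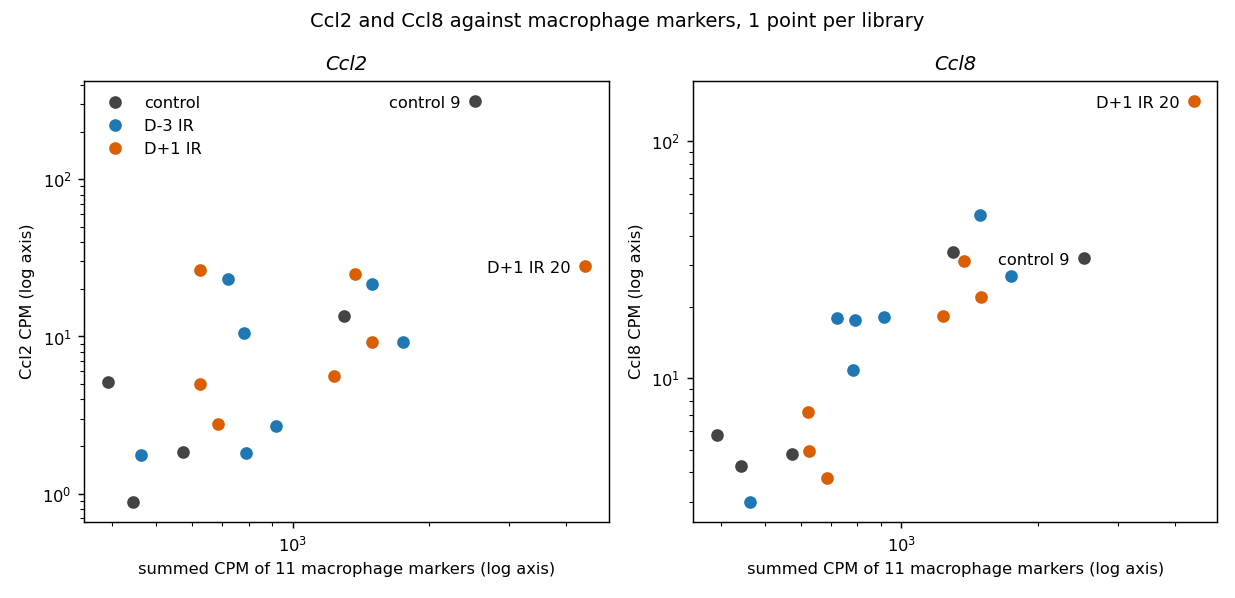
CPM of Ccl2 (left) and Ccl8 (right) against the summed CPM of 11 macrophage markers, on log axes, with 1 point per library coloured by group. Control 9 lies above the other libraries for Ccl2 (314 CPM at 2525 CPM of markers), whereas D+1 IR 20 is the upper end of the Ccl8 points (148 CPM at 4401 CPM of markers).

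Other genes of monocyte recruitment were read from a list of 48 ligands, receptors, decoy receptors, adhesion molecules, sheddases and upstream cytokines, of which 45 were tested. In D-3 IR against control 0 of 45 passed, 21 had a positive and 24 a negative fold change (median -0.02, and -0.03 over all genes), and 7 had an unadjusted p under 0.05, beside 1.32% of all genes. Without control 9, 41 were positive and 4 negative, where 47.5% of all genes were positive. In that fit 1 had such a p, beside 1.55% of all genes. With all libraries, the smallest p in each direction were those of Ccl5 (log2 fold change 2.37, standard error 1.13) and the integrin gene Itga4 (0.52, standard error 0.27), and of Il1b (-3.52, standard error 1.28) and Ccl4 (-3.33, standard error 1.22). Il1b, which induces Ccl2 in many cells, was at 139 CPM in control 9, at 0.277 to 3.13 CPM in the other 4 controls and at most 8.58 CPM in any irradiated library. Ccl4 was at 19.9 CPM in control 9, at 0.034 to 0.796 CPM in the other 4 controls and at most 3.01 CPM in the irradiated libraries. Without control 9 both turned, to 0.97 (standard error 0.95) for Il1b and 0.58 (standard error 0.96) for Ccl4. Ccl5 was at 34.3 CPM in D-3 IR 10 and at a median of 1.47 CPM in its group. All of these had an adjusted p of 1.00 from edgeR.

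In D+1 IR against control 0 of 45 passed, with 22 positive and 23 negative (median -0.01, and -0.04 over all genes) and 4 at an unadjusted p under 0.05, beside 7.11% of all genes. Without control 9, 41 were positive, where 48.5% of all genes were, and 8 had such a p, beside 7.14% of all genes. Without D+1 IR 20, 21 were positive and 24 negative, where 43.2% of all genes were positive. In that fit 6 had such a p, beside 9.86% of all genes. Cxcl12, which retains leukocytes in tissue and marrow, was at 273 ± 45.7 CPM in D+1 IR (SD, n = 7) and 192 ± 50.4 CPM in control (SD, n = 5), a log2 fold change of 0.50 (standard error 0.21). Pecam1, an adhesion molecule of endothelial junctions, had 0.51 (standard error 0.24). Il1b (-3.09, standard error 1.26) and Ccl4 (-2.60, standard error 1.18) again had the smallest p among the negative ones, and without control 9 they were at 1.39 (standard error 0.97) and 1.31 (standard error 0.98). With all libraries, the adjusted p was 0.644 for all of these from edgeR.

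In D-3 IR against D+1 IR 0 of 45 passed, with 15 positive and 30 negative (median -0.24, and -0.04 over all genes) and 2 at an unadjusted p under 0.05, beside 11.5% of all genes. Without D+1 IR 20, 20 were positive and 25 negative, where 47.9% of all genes were positive. In that fit 1 had such a p, beside 14.5% of all genes. The 2 with all libraries were Cd99 (0.40, standard error 0.17), which leukocytes use to cross the endothelium, and the integrin gene Itgb1 (0.80, standard error 0.35), each at an adjusted p of 0.421 (edgeR). Of the negative ones, the scavenging receptor gene Ackr4 (-1.29, standard error 0.74) and Il6 (-1.90, standard error 1.30) had the smallest p. Ackr4 was at 45.2 CPM in D+1 IR 2, with a median of 3.16 CPM in D+1 IR and 4.07 CPM in D-3 IR. Il6 was at 16.1 CPM in D+1 IR 17, with a median of 1.46 CPM in D+1 IR and 0.740 CPM in D-3 IR. The CSF1 receptor ligand gene Il34 was at 1.75 CPM in control 9, the lowest of all libraries, and up to 9.75 CPM in D-3 IR 10, and Il6 was at 52.0 CPM in control 9 against 3.25 CPM in D+1 IR 20.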

How the data were processed

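RNA of 19 abdominal aortas was sequenced as 1 library per mouse. The authors used FastQC for quality and STAR 2.7.9a for alignment (GRCm38), and deposited raw counts of reads per gene, in which reads that align to several places are left out. The counts of both strands together were used, since each strand held about the same share of a gene's reads, although a stranded kit is named. Genes were tested with edgeR 4.0.16 in R 4.3.3 (TMM, default filter on low counts, no intercept, all 3 groups together, legacy quasi-likelihood F-tests, two-sided, Benjamini-Hochberg over 17617 genes, threshold 0.05). Counting error covers only part of the spread, which is set by the mice. Log2 CPM used a prior count of 2. Exon lengths came from GENCODE M21, promoters from RefSeq (GRCm38.p6). Correlations used permutation tests in numpy 2.4.6. The fit was also tested on simulated data.

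The 9 genes, the marker lists and the list of 48 other genes of recruitment were chosen with earlier results of these data known. The text names all 9, Csf1r and Ly6c1, up to 2 genes of that list with the smallest p per direction and comparison, and the 3 genes most like each of the 9, of which 1 is not reported here. Il34 and Il6 levels were added with their values in view. The alternatives were DESeq2 1.42.0, voom with sample weights (limma 3.58.1), other scalings, filters and quasi-likelihood methods, only the groups compared, and fits without each library or without D+1 IR 1, 2 and 3. Fits of only the genes in the authors' joined table and correlations without control 9 and D+1 IR 20 were added after seeing the data. No columns of the authors' own comparisons were used. Assays other than RNA-seq were not analysed here.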

Additional observations from a re-analysis of the deposited data

Results flagged for a closer look

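Of the 27 combinations of gene and group, 11 had a highest library whose gap to the next was large for the range of its group (Dixon's test on CPM). Chance gives about 1 in 20 where values follow a normal distribution, but CPM are skewed, and on log2 CPM 0 of the 27 reached the critical value. Control 9 was already singled out when the 9 genes were chosen. Control 9 stood out for 5 genes, with Ccl2 at 314 CPM, Ccl7 at 165 CPM, Ccr2 at 108 CPM, Csf1 at 162 CPM and Ly6c2 at 20.4 CPM. D+1 IR 20 stood out for 4, with Ccl8 at 148 CPM, Ccl12 at 22.3 CPM, Cx3cr1 at 41.2 CPM and Ly6c2 at 38.3 CPM. The other 2 were in D-3 IR 10, with Cx3cr1 at 15.2 CPM and Ly6c2 at 21.5 CPM. D-3 IR 10 also had the highest sums of T cell markers (210 CPM) and of skeletal muscle markers (5802 CPM) of all libraries. D+1 IR 20 had the lowest Myh11 (176 CPM) and the highest sum of adventitial fibroblast markers (18352 CPM) of all libraries. The part of those cells in the values of either library was not tested.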

How the results depend on the processing

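None of the 9 genes was called in any comparison under any alternative. The largest count of all genes called was 2298, by voom between D-3 IR and D+1 IR. Of 810 alternative fold changes, 764 kept their direction and 46 turned, 11 of them without control 9 and 7 without D+1 IR 20, and 22 of the 27 fold changes turned at least once. Under voom with sample weights the log2 fold changes that turned were, in D-3 IR against control, -0.051 (Ccl8), -0.27 (Cx3cr1) and 0.029 (Csf1). In D+1 IR against control they were 0.036 (Ccl7), -0.083 (Ccl8), -0.41 (Cx3cr1), 0.023 (Csf1) and -0.48 (Ly6c2), and between D-3 IR and D+1 IR 0.032 (Ccl8), 0.14 (Cx3cr1), 0.0068 (Csf1) and 0.28 (Ly6c2). Upper-quartile factors gave 0.021 for Ly6c2 in D-3 IR against control. Without D+1 IR 1, 2 and 3, Csf1 had 0.015 in D+1 IR against control and Cx3cl1 -0.037 between D-3 IR and D+1 IR.

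Leaving out 1 library at a time, the values in D-3 IR against control ran from -3.08 to 0.92 (Ccl2), -2.51 to 0.65 (Ccl7), -0.043 to 0.80 (Ccl8), -0.48 to 0.60 (Ccl12), -1.14 to 0.76 (Ccr2), -0.23 to 0.035 (Cx3cl1), -0.20 to 0.37 (Cx3cr1), -0.43 to 0.25 (Csf1) and -1.46 to 1.96 (Ly6c2). In D+1 IR against control they ran from -2.52 to 1.46 (Ccl2), -1.63 to 1.67 (Ccl7), -0.16 to 1.51 (Ccl8), -0.019 to 1.77 (Ccl12), -0.81 to 1.24 (Ccr2), -0.30 to 0.88 (Cx3cr1), -0.39 to 0.30 (Csf1) and -0.93 to 2.699 (Ly6c2). Between D-3 IR and D+1 IR they ran from -1.09 to 0.49 (Ccl8), -1.45 to -0.18 (Ccl12), -0.029 to 0.21 (Cx3cl1), -0.765 to 0.35 (Cx3cr1), -0.11 to 0.055 (Csf1) and -2.08 to 0.82 (Ly6c2).

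The count of all genes called was 0 with edgeR's legacy quasi-likelihood method, and DESeq2 called 2 in D+1 IR against control, 56 between D-3 IR and D+1 IR and 23 among the 3 groups. Voom called 2298 between D-3 IR and D+1 IR, and the newer quasi-likelihood method 1 among the 3 groups. Of 36 pairs, 23 were correlated with all libraries, 20 to 24 without 1 library and 12 without control 9 and D+1 IR 20. Without both, Ccr2 with Cx3cr1 (r = 0.554) and with Ly6c2 (r = 0.366) no longer passed. Cx3cl1 with Cx3cr1 had r = -0.0041 for deviations from group means and -0.066 to 0.146 without 1 library. The cause of these changes was not tested. Ly6c2 and Ccl12 rested on as few as 7 and 12 reads per library. No paired analysis was possible because no number is shared between the groups and every mouse has a single library.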
